A study of Mus musculus with 50 samples.

Results

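The Myc family genes described here are the 3 MYC paralogs Myc, Mycn and Mycl and 4 genes of their antagonists, Mnt, Mxi1, Mxd3 and Mxd4. These 7 genes were taken by symbol, each matching 1 row, out of 17043 genes in the table of FPKM values (fragments scaled to gene length and library total) and 55421 genes in each of the 3 tables of TPM values (transcript shares on a fixed library total). The study asks which developmental genes depend on β-catenin and on proteins found with it in mouse embryonic stem (ES) cells, and RNA-seq libraries were used here. V6.5 ES cells in 2i, a defined medium with inhibitors of MEK and GSK3, carried one of 4 short hairpins: shBcat for β-catenin with 2 libraries, shE2F6 for the repressor E2F6 with 2, shHP1r for the heterochromatin protein HP1γ (gene Cbx3) with 2, and the mock control shGFP with 6. All 12 stand in the FPKM table. A second line labelled QKO, a name the labels do not spell out, carried shBcat or shGFP in 2i with a time of 48 h in its titles (n = 3 each, 1 TPM table). Unmodified V6.5 cells in 2i and their epiblast-like cells (epiLC) after 24 h and 48 h in epiLC medium made up the control course (n = 2 each, 1 TPM table). The last TPM table held epiLC with shBcat at 24 h, 48 h and 96 h and epiLC without a hairpin at 96 h (n = 2 each). All of the 2i groups share the GSK3 inhibitor, which stabilises β-catenin, whatever hairpin they carry. The labels give no age, sex or clone for either line, and nothing in them states that the replicates were independent cultures, so p-values here reflect library-to-library spread alone, possibly a technical one.

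MYC proteins are transcription factors that bind E-box DNA as partners of MAX and raise the output of genes for ribosome assembly, nucleotide synthesis and cell growth. MNT and the MXD proteins, of which MXI1 is a member, compete for MAX and recruit corepressors to the same sites. In ES cells kept with inhibitors of MEK and GSK3 Myc is known to be low, N-MYC is the prominent paralog, and MYC activity is known to rise as cells leave the naive state.

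In GRCm38.p6 (RefSeq) Myc lies on chromosome 15 (61985341 to 61990361), Mycn on chromosome 12 (12936093 to 12941836), Mycl on chromosome 4 (122995588 to 123002490), Mnt on chromosome 11 (74830806 to 74845725), Mxi1 on chromosome 19 (53310128 to 53373293), Mxd3 on chromosome 13 (55325170 to 55329900) and Mxd4 on chromosome 5 (34176580 to 34187710). All 7 are protein-coding genes, and FPKM and TPM count reads over the whole gene. Promoter windows of 250 bases before the start site were read from RefSeq GRCm38.p6 for 6 of the 7 members, all but Myc. They were searched on both strands for the E2F motifs TTTGGCGC, TTTCGCGC and TTTCCCGC, the TCF/LEF motifs CTTTGAA and CTTTGAT, and the E-box CACGTG. Of the 3 windows with a match, those of Mycn and Mxd4 are shown 5′ to 3′ in the direction of the gene with the matches in capitals, because E2F6 is among the proteins knocked down, β-catenin acts with TCF/LEF factors, and the E-box is the site that MYC and its antagonists share. They are the minus-strand windows chr12:12941837-12942086 (Mycn) and chr5:34187711-34187960 (Mxd4).
Mycn: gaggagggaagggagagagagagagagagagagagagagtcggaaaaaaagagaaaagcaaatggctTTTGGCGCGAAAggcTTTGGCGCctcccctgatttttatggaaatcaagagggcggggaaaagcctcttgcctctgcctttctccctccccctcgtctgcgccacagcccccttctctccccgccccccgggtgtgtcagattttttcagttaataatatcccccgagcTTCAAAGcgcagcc
Mxd4: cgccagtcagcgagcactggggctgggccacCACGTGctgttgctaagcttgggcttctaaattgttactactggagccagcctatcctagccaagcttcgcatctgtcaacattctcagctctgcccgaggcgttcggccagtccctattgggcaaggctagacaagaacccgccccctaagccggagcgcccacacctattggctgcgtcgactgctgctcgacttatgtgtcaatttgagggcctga
The Mycn window held TTTGGCGC at 183 to 176 and at 168 to 161 bases before the start. The match nearer the 5′ end overlapped a TTTCGCGC match on the other strand, at 179 to 172 bases. TTTGGCGC stood in 137 of all 32851 promoter windows of the same length (0.417%), TTTCGCGC in 84 (0.256%) and TTTCCCGC in 294 (0.895%). Mycn was 1 of 2 windows with at least 2 matches to TTTGGCGC. It also held CTTTGAA on the other strand at 14 to 8 bases before the start, a motif found in 1464 windows (4.46%), and no CTTTGAT (1053 windows, 3.21%). The E-box stood 219 to 214 bases before the Mxd4 start, and in 1978 windows (6.02%) in all. The Mnt window (chr11:74830674-74830923, plus strand) belongs to a start site downstream of the gene start given above. Its E-box, 123 to 118 bases before that site, reaches the gene start, so that part of the window lies inside the annotated gene and its sequence is not printed. No motif was matched in the windows of Mycl, Mxd3 and Mxi1 (3 start sites), and a match to these letters is a description of the sequence only. The Mycl and Mxi1 windows lie wholly inside the annotated gene and the Mxd3 window lies partly inside it. The absence of a match there does not describe the sequence before the gene start given above.

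The labels were checked on the targeted genes and on marker lists. Ctnnb1 fell with shBcat in V6.5 cells, QKO cells and 96 h epiLC (log2 changes -3.93, -2.98 and -1.62), E2f6 fell with shE2F6 (-1.45) and Cbx3 with shHP1r (-3.02), each with a limma adjusted p of at most 0.0108. Of 12 naive pluripotency genes 11 fell and of 11 formative and primed genes all 11 rose in control epiLC at 24 h, so that the 2i and epiLC labels matched their markers. In the FPKM table shGFP replicates 3 and 4 and the shE2F6 libraries stood apart, with mitochondrial transcripts at 19.3% to 22.9% of the values against 6.23% to 10.3% in the other 8 libraries. The shGFP libraries also lay in pairs (1 and 2, 3 and 4, 5 and 6), with a median absolute log2 difference of at most 0.0657 within a pair and at least 0.158 across pairs. Depth is unknown for every library, and only values within a table are compared.

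In V6.5 cells in 2i Mycn was the leading MYC paralog, and in the 2 unmodified libraries Myc was the lowest of the 7 genes. Unmodified cells in 2i held Mycn at 13.81 and 14.55 TPM, Mycl at 7.26 and 7.38 TPM and Myc at 0.70 and 0.65 TPM. On the per-length TPM scale the level of Mycn was 19.7 and 22.4 times that of Myc in the same library. Mxi1, a MAX-binding repressor, was the highest member at 21.05 and 21.14 TPM, followed by Mycn, by Mnt at 8.60 and 9.56 TPM, and by Mycl and Mxd3 at 7.32 ± 0.085 and 6.20 ± 0.39 TPM (SD, n = 2). Mxd4 stood at 1.15 and 1.70 TPM. No neighbours in this order overlapped. The mock control cells of the FPKM table had a similar order of paralogs, with a median Mycn of 16.95 FPKM, Mycl of 3.645 FPKM and Myc of 1.07 FPKM over 6 libraries. There Mxd4, with a median of 0.713 FPKM, was the lowest of the 7, and its range of 0.38 to 0.985 FPKM overlapped that of Myc, 0.80 to 3.59 FPKM.

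After 24 h of epiLC culture all 3 paralogs rose, Myc by far the most. Myc went from 0.70 and 0.65 TPM in 2i to 69.75 and 68.99 TPM, a log2 change of 5.39 (SE 0.05, limma adjusted p = 1.91e-08). Mycn, whose protein is needed for progenitor growth, went from 13.81 and 14.55 to 61.70 and 62.25 TPM (log2 change 2.05, SE 0.04, limma adjusted p = 1.26e-07). Mycl, the least studied paralog, went from 7.26 and 7.38 to 8.91 and 8.73 TPM (0.24, SE 0.06, limma adjusted p = 0.00632). The libraries of both groups agreed closely and did not overlap for any of the 3 genes. All 7 members passed the test in this comparison, 6 higher and 1 lower, where 76% of all genes tested were called (36.2% higher and 39.8% lower). Fold changes throughout were computed on log2(value + 1), so the change of a gene near 0, such as Myc in 2i, is understated. In bulk RNA fewer cells expressing a gene and less RNA of it per cell cannot be told apart.

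Between 24 h and 48 h the paralogs parted. Myc fell from 69.75 and 68.99 to 32.39 and 34.99 TPM (log2 change -1.02, SE 0.05, limma adjusted p = 4.48e-06). Mycn fell from 61.70 and 62.25 to 26.30 and 24.92 TPM (log2 change -1.24, SE 0.04, adjusted p = 1.13e-06). Mycl rose from 8.91 and 8.73 to 19.36 and 17.92 TPM (log2 change 1.00, SE 0.06, adjusted p = 6.28e-06). At 48 h every library still lay above 2i for all 3 genes, with log2 differences of 4.37 for Myc, 0.81 for Mycn and 1.24 for Mycl (limma adjusted p = 1.51e-08, 4.58e-06 and 1.78e-06). Thus Myc and Mycn were highest at 24 h, while Mycl was highest at 48 h, and for each of the 3 genes every step of its order passed the test. Of all genes tested, 74.2% were called between 24 h and 48 h and 75.9% between 2i and 48 h, and of the 7 members 5 each time. Other cell types moved as well: summed trophoblast markers stood at 78.3 to 84.1 TPM in 2i, 32.1 to 33.7 TPM at 24 h and 200 to 209 TPM at 48 h, with 6 of 7 tested markers higher at 48 h than at 24 h and none of the 8 listed at 0 in all libraries of a group. All 6 tested primitive streak and mesoderm markers and all 3 tested endoderm markers were also higher at 48 h than at 24 h, with sums of 39.4 to 41.1 against 7.78 to 8.02 TPM and 23.4 to 27.6 against 7.00 to 7.06 TPM. Summed neuroectoderm markers stood at 100.3 to 105 against 48.1 to 48.4 TPM, with 4 of 6 tested higher and 2 lower. Summed formative and primed markers were lower, at 522 to 530 against 1081 to 1088 TPM, with 7 of 11 lower and 3 higher. Of 12 naive genes 5 rose and 5 fell, and of 7 tested fibroblast or feeder markers 5 rose and 2 fell. The part of these markers in the results for the 3 paralogs and Mxd4 was not tested.

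The antagonists followed different courses. Mxd4, a MAX dimerisation protein linked to cell cycle exit, rose at both steps, from 1.15 and 1.70 TPM in 2i to 3.48 and 3.61 TPM at 24 h and 8.35 and 8.66 TPM at 48 h (log2 changes 0.92, SE 0.11, and 1.06, SE 0.11, limma adjusted p = 0.000276 and 0.000139). Mnt, the broadly expressed MAX-binding repressor, rose at 24 h from 8.60 and 9.56 to 15.24 and 14.31 TPM (log2 change 0.65, limma adjusted p = 7.28e-05) and stood at 15.39 and 15.53 TPM at 48 h. Its change from 24 h to 48 h was 0.06 with a 95% interval from -0.09 to 0.21. Mxd3, which is known for its expression in dividing cells, rose at 24 h from 5.93 and 6.48 to 10.26 and 10.45 TPM (log2 change 0.66, adjusted p = 7.62e-05) and fell to 7.23 and 6.83 TPM at 48 h (-0.50, adjusted p = 0.000345). Mxi1 was the only member that fell at 24 h, from 21.05 and 21.14 to 18.97 and 18.39 TPM (-0.17, adjusted p = 0.0085), and that call was lost without 24 h replicate 2 (-0.15, adjusted p = 0.055). At 48 h Mxi1 stood at 20.17 and 19.53 TPM, and its difference from 2i (-0.08, adjusted p = 0.105) passed the test only with median-of-ratios scaling (-0.19, adjusted p = 0.00421). So Mxd4 was the antagonist with the largest change, as Myc was among the paralogs, while Mxi1 stayed between 18.39 and 21.14 TPM throughout.

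**Figure D1:**
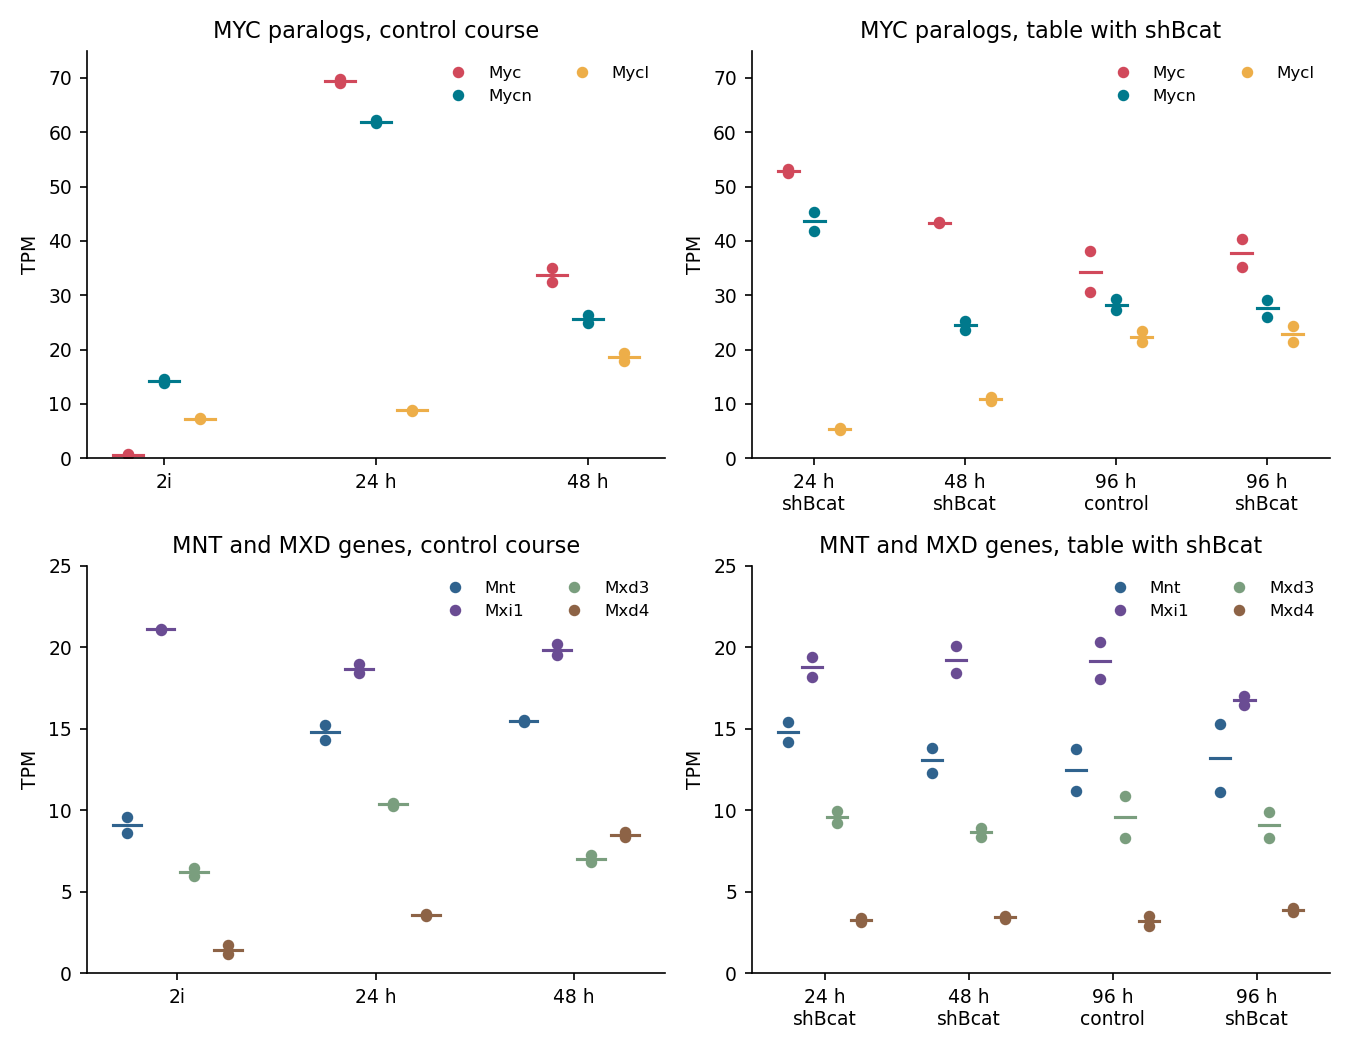
Levels in TPM (vertical axis) of the MYC paralogs (top) and the MNT and MXD genes (bottom) in 2i and epiLC, with 1 point per library and a bar at the group mean, the control course on the left and the table with shBcat on the right. Myc and Mycn peak at 24 h in the control course, while Mycl and Mxd4 are highest at 48 h.

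The switch between paralogs was also read within each library, as shares of a sum, in which scaling between libraries does not enter. The sum itself and, through the added 1, the log2 ratio given below still depend on it. The summed TPM of Myc, Mycn and Mycl was 21.8 and 22.6 in 2i, 140.4 and 140.0 at 24 h and 78.0 and 77.8 at 48 h. Mycn made up 63.9% ± 0.71 of this sum in 2i (SD, n = 2), Mycl 33.0% ± 0.47 and Myc 3.05% ± 0.24. At 24 h Myc took 49.5% ± 0.29, Mycn 44.2% ± 0.36 and Mycl 6.29% ± 0.078, and at 48 h 43.2% ± 2.45, 32.9% ± 1.19 and 23.9% ± 1.26. Mycl thus lost and regained most of its share, while its own level never fell. The log2 ratio of Mycn + 1 to Myc + 1 went from 3.18 ± 0.080 in 2i to -0.16 ± 0.020 at 24 h and -0.38 ± 0.13 at 48 h. From 2i to 24 h it changed by -3.34, and by -4.37 with a pseudocount of 0.1 and -4.56 with none. The 3 groups did not overlap, and each pair gave an exact two-sided permutation p = 0.333, the smallest that 2 libraries against 2 allow.

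**Figure D2:**
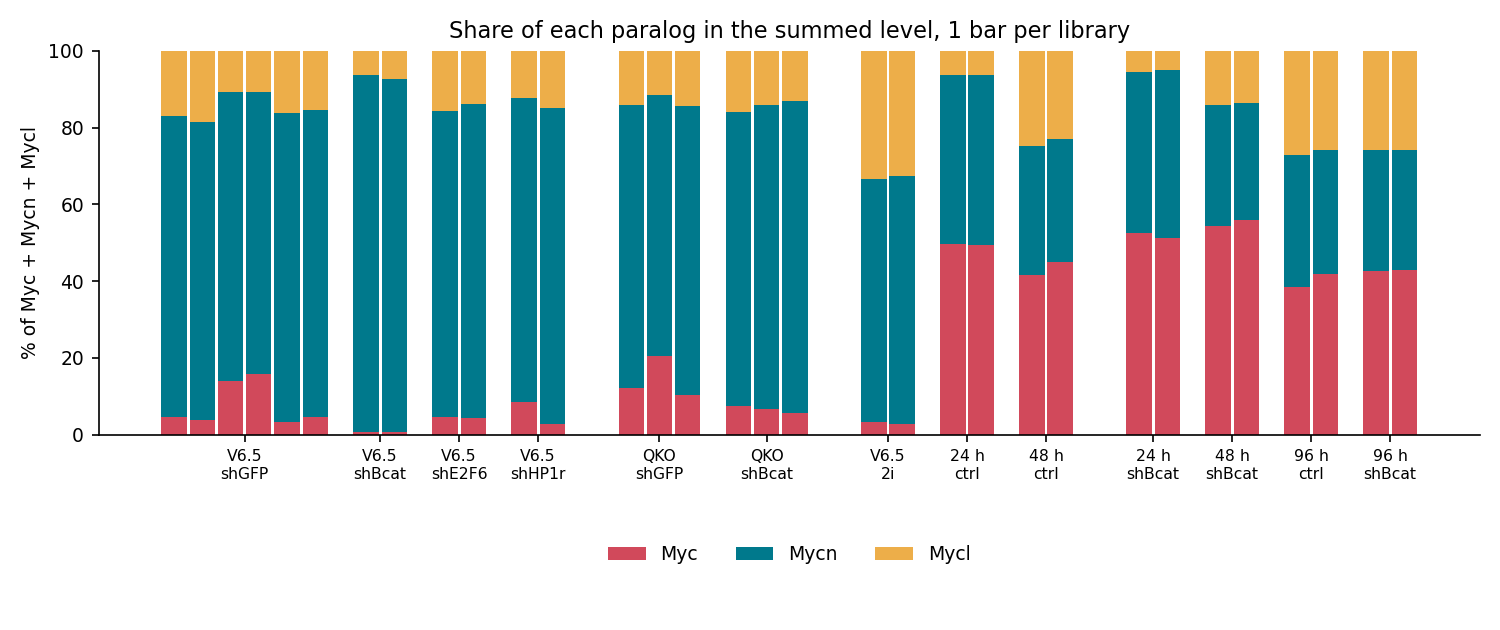
Share of Myc, Mycn and Mycl in their summed level (vertical axis, % of summed FPKM for the V6.5 hairpin libraries at the left and of summed TPM elsewhere), with 1 bar per library. Mycn makes up the largest part of every 2i library, and Myc the largest part of every epiLC library.

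In epiLC carrying shBcat the paralogs followed a course of the same kind, with fewer calls. Myc stood at 52.55 and 53.28 TPM at 24 h, 43.44 and 43.22 TPM at 48 h and 35.14 and 40.31 TPM at 96 h. These groups did not overlap, but neither step passed the test (log2 changes -0.28 and -0.20, limma adjusted p = 0.071 and 0.174). Median-of-ratios scaling called both steps (-0.29 and -0.30, adjusted p = 0.0422 and 0.0396), and fitting only the compared groups called the step from 24 h to 48 h (adjusted p = 0.00308). Mycn fell from 41.88 and 45.36 TPM at 24 h to 25.33 and 23.65 TPM at 48 h (log2 change -0.81, SE 0.08, limma adjusted p = 0.000272), and stood at 26.08 and 29.18 TPM at 96 h (0.17, adjusted p = 0.136). Mycl rose at both steps, from 5.65 and 5.19 to 11.28 and 10.57 and then to 21.37 and 24.33 TPM (log2 changes 0.89 and 1.00, limma adjusted p = 0.000282 and 0.000239). It was the only member called from 48 h to 96 h, where 35% of all genes were called, and with Mycn 1 of 2 called from 24 h to 48 h, where 33.4% were. Mnt, Mxi1, Mxd3 and Mxd4 passed at neither step, and Mxd4 stood at 3.12 to 3.97 TPM in every shBcat library of the course. Sums of markers of other cell types were higher at each later time. Trophoblast markers stood at 47.8 to 49.8, 61.8 to 62.8 and 121 to 129.7 TPM, although from 24 h to 48 h 2 of 7 tested fell and 5 rose. Neuroectoderm markers stood at 33.8 to 35.2, 56.8 to 60.9 and 88.9 to 90.7 TPM, and primitive streak and mesoderm markers at 9.79 to 10.0, 18.0 to 19.6 and 37.9 to 40.5 TPM. None of these markers was at 0 in all libraries of a group, and their part in the Mycl result was not tested. The control libraries of 24 h and 48 h stand in another table, normalized separately, so the 48 h values of Mycl (19.36 and 17.92 TPM in control epiLC, 11.28 and 10.57 TPM with shBcat) and of Mxd4 (8.35 and 8.66 against 3.33 and 3.53 TPM) are given side by side without a test.

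At 96 h of epiLC, where shBcat and control libraries share a table, no member passed the test for shBcat, while 4.82% of all genes did. The controls carried no hairpin, and mean Ctnnb1 was 143.5 TPM with shBcat against 444.6 TPM. With shBcat Ctnnb1 was higher at 96 h than at 48 h (mean 104.8 TPM, log2 change 0.45, limma adjusted p = 0.000319). The limma count of members at an unadjusted p under 0.05 was 1 of 7. With no share of all genes computed at that threshold, this count cannot be called high or low. Myc stood at 30.54 and 38.08 TPM in the controls and 35.14 and 40.31 TPM with shBcat, and the groups overlapped. The 95% intervals of the log2 difference were -0.10 to 0.38 for Myc, -0.21 to 0.15 for Mycn and -0.18 to 0.23 for Mycl. Mycn stood at 27.20 and 29.27 against 26.08 and 29.18 TPM, and Mycl at 21.42 and 23.37 against 21.37 and 24.33 TPM, so that the shBcat libraries spanned the control libraries for both. Mxi1 was lower in both shBcat libraries (17.03 and 16.43 against 18.05 and 20.31 TPM, log2 difference -0.18, limma adjusted p = 0.248) and Mxd4 higher in both (3.73 and 3.97 against 2.89 and 3.50 TPM, 0.21, adjusted p = 0.302). The log2 ratio of Mycn + 1 to Myc + 1 was -0.27 ± 0.15 in the controls and -0.43 ± 0.026 with shBcat (exact permutation p = 0.333, the smallest possible with n = 2 each).

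In V6.5 cells in 2i, shBcat moved the 3 paralogs apart, and 1 of the 3 differences passed the test. Mycn rose from 16.4 to 20.1 FPKM with shGFP (median 16.95 FPKM, n = 6) to 26.8 and 27.2 FPKM with shBcat, a log2 change of 0.59 (SE 0.10, limma adjusted p = 0.00471). It was higher in both shBcat libraries than in all 6 controls, and was the 1 member called of 7, where 8.71% of all genes were. The call was lost without either shBcat library (adjusted p = 0.0877 and 0.0995, log2 changes 0.60 and 0.58). It was also lost when the 3 close pairs of shGFP libraries and the libraries of each knockdown were averaged and counted as 1 each (0.59, adjusted p = 1.00). Myc stood at 0.80 to 3.59 FPKM with shGFP (median 1.07 FPKM) and 0.225 and 0.212 FPKM with shBcat (log2 difference -1.06, SE 0.39, limma adjusted p = 0.131). Mycl stood at 2.42 to 4.07 FPKM with shGFP (median 3.645 FPKM) and 1.84 and 2.15 FPKM with shBcat (-0.52, SE 0.17, limma adjusted p = 0.0828). Both shBcat libraries lay below all 6 controls for Myc and for Mycl. The control spread for both genes came mostly from shGFP replicates 3 and 4, which had Myc at 3.25 and 3.59 FPKM and Mycl at 2.45 and 2.42 FPKM. With those 2 libraries left out, an alternative added after the data were seen, both genes passed (Myc -0.66, adjusted p = 0.0480, and Mycl -0.69, adjusted p = 0.00086) and Mycn stayed called (0.56, adjusted p = 0.00372). With a term for the library set that those 2 form with shE2F6, Myc and Mycl were called as well (-0.66, adjusted p = 0.0311, and -0.69, adjusted p = 0.000243).

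Within each library the level of Mycn was 119 and 128 times that of Myc with shBcat and 4.62 to 24.9 times with shGFP (FPKM). Mycn thus made up 92.4% ± 0.59 of the summed FPKM of the 3 paralogs with shBcat (n = 2) and 77.5% ± 2.72 with shGFP (n = 6). The log2 ratio of Mycn + 1 to Myc + 1 was 4.52 ± 0.025 against 2.87 ± 0.67, and all shBcat values lay above all control values (exact two-sided permutation p = 0.0714, the smallest that 2 libraries against 6 allow). The size of this difference, 1.65, depends on the added 1 and was 3.33 with none. The plain ratios with shBcat rest on Myc values near 0, at 0.212 to 0.225 FPKM. Of the antagonists, Mxd3 stood at 2.73 and 2.71 FPKM with shBcat against 1.12 to 2.47 FPKM (log2 difference 0.46, limma adjusted p = 0.116), and Mxd4 at 0.263 and 0.242 FPKM against 0.38 to 0.985 FPKM (-0.41, adjusted p = 0.373). Neither overlapped its controls. Mnt and Mxi1 lay inside the control range, with log2 differences of 0.05 (95% interval -0.17 to 0.26) and 0.09 (-0.33 to 0.50). Markers of other cell types moved in the same libraries, in both directions. Summed neuroectoderm markers stood at 20.2 to 21.6 FPKM with shBcat and 7.57 to 9.18 FPKM with shGFP (2 of 5 tested rose, 6 of 7 listed in the table), and summed trophoblast markers at 56.7 to 59.0 against 31.5 to 48.4 FPKM (3 of 5 tested rose). Summed primitive streak and mesoderm markers were lower, at 1.97 to 2.32 against 5.20 to 8.88 FPKM (2 of 4 tested fell, median log2 difference -0.70), and 2 of 12 naive genes fell. The FPKM table holds no value of 0, so that no marker can stand at 0 in it. The part of these markers in the Mycn result and in the Myc and Mycl values was not tested.

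**Figure D3:**
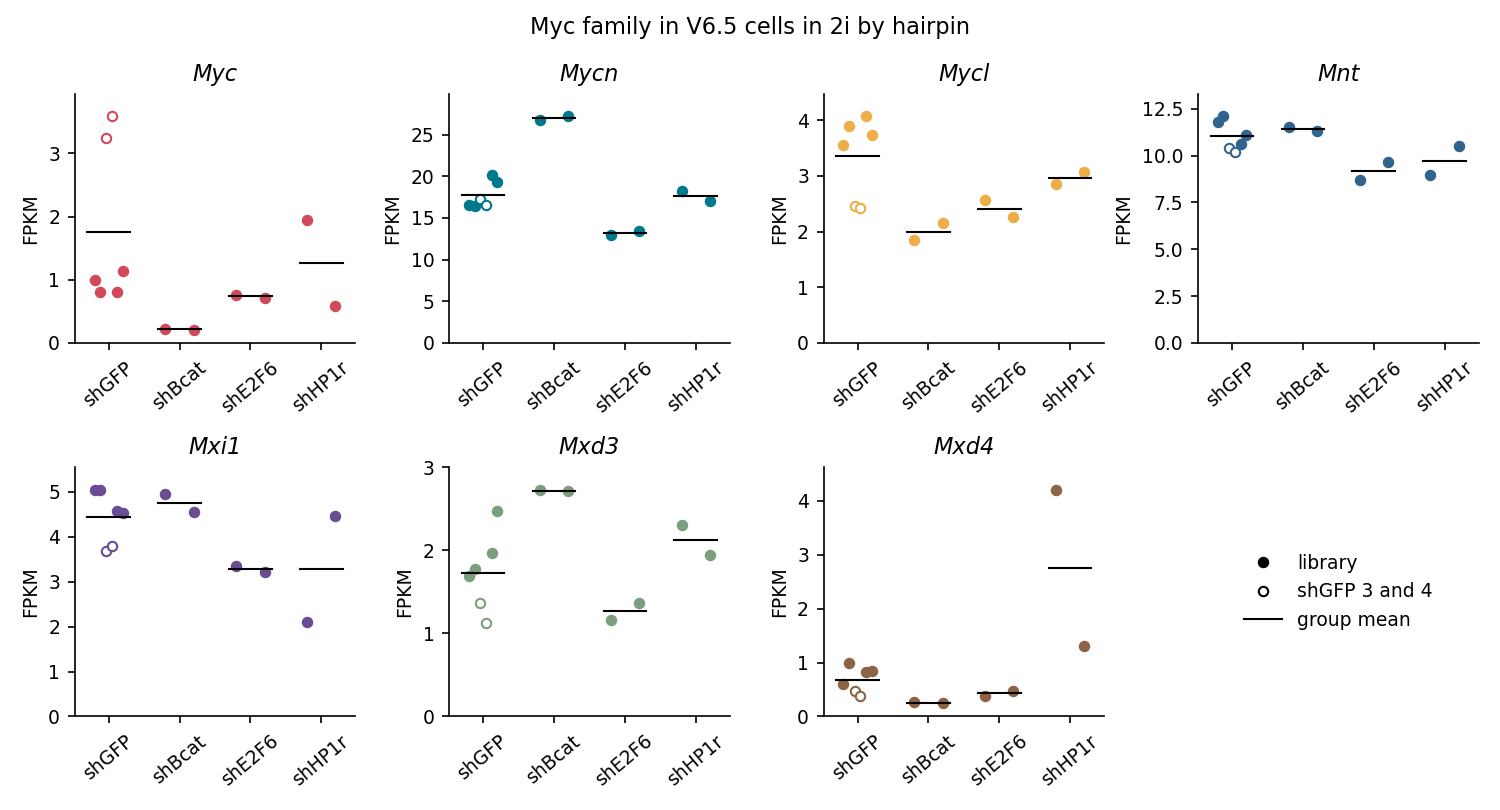
FPKM (vertical axis) of the 7 members in V6.5 cells in 2i by hairpin, with 1 point per library, a bar at the group mean and open circles for shGFP replicates 3 and 4. Mycn lies above every control with shBcat, and the 2 open circles hold the highest Myc and the lowest Mycl of the 6 controls.

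With shE2F6 no member passed the test (1.06% of all genes were called). The limma count was 2 of 7 at an unadjusted p under 0.05. No share of all genes was computed there, so this count cannot be called high or low. All 7 log2 differences were below 0, with a median of -0.34, against a median of -0.20 over all genes tested. Mycn stood at 12.9 and 13.4 FPKM against 16.4 to 20.1 FPKM with shGFP (log2 difference -0.40, SE 0.10, limma adjusted p = 0.0655). Both shE2F6 libraries lay below all 6 controls. With median-of-ratios scaling, which removes that shift of all genes, the difference was -0.16 (adjusted p = 0.343). Without shGFP replicate 3 or without replicate 4 Mycn was called (adjusted p = 0.0269 and 0.0355, log2 changes -0.40 and -0.41). Myc stood at 0.766 and 0.706 FPKM, just under the lowest control at 0.80 FPKM (-0.55, adjusted p = 0.314). Against shGFP replicates 3 and 4 alone, which share the high mitochondrial percentage of the shE2F6 libraries, the differences were -1.35 for Myc (adjusted p = 0.0606), -0.34 for Mycn (0.0683) and -0.01 for Mycl (0.96), and no member was called. With the term for that library set Myc was called (-1.35, adjusted p = 0.0183), and with replicates 3 and 4 left out Mycn, Mycl, Mnt and Mxd3 were called and Myc was not (-0.15, adjusted p = 0.532). Which controls stand beside shE2F6 thus changes which members pass. Over all genes the calls went from 153 as reported to as many as 8495 under the alternatives. The members called under an alternative are therefore not read as particular to this family.

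With shHP1r the 1 member called was Mxd4, where 7.59% of all genes were. Mxd4 stood at 4.21 and 1.30 FPKM against 0.38 to 0.985 FPKM with shGFP (log2 change 1.05, SE 0.25, limma adjusted p = 0.0311). Both shHP1r libraries lay above all 6 controls, but replicate 1 was more than 3 times as high as replicate 2. Every library without shHP1r in the FPKM table held Mxd4 below 1 FPKM. The gene thus met the filter on low values only through the shHP1r libraries, and was tested only because it was high there. Without either of the shHP1r libraries Mxd4 no longer met the filter on low values and was not tested. Without shGFP replicate 5 the limma adjusted p was 0.0501. A fit of the compared groups alone lost the call (adjusted p = 0.0937). Replicate 1 also stood apart for Mxi1, at 2.11 against 4.46 FPKM in replicate 2, and for Myc, at 1.95 against 0.588 FPKM. Mxi1 was called lower without replicate 2 (-0.80, adjusted p = 0.0133). Mycn stood at 18.2 and 17 FPKM, inside the control range, with a 95% interval of the log2 difference from -0.22 to 0.21. Summed endoderm markers were higher, at 5.07 to 6.97 against 1.70 to 4.74 FPKM in the controls, without overlap (1 of 3 tested rose, median log2 difference 0.53). Summed trophoblast markers, at 46.6 to 48.8 against 31.5 to 48.4 FPKM, overlapped, with 2 of 5 tested higher and 1 lower, and summed neuroectoderm markers stood at 10.0 to 11.1 against 7.57 to 9.18 FPKM with none of 5 called. The part of these markers in the Mxd4 result was not tested.

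The knockdowns were then compared with each other, since a call in only 1 of them is no test of a difference. Mycn separated all 3: shE2F6 was lower than shBcat (log2 difference -0.98, limma adjusted p = 0.00127), shHP1r was lower than shBcat (-0.59, adjusted p = 0.00999) and shHP1r was higher than shE2F6 (0.39, adjusted p = 0.0489). The last difference dropped to 0.05 (adjusted p = 0.827) with median-of-ratios scaling, a comparison in which the median of all genes was 0.26. Without any 1 of the 4 libraries compared it also missed the threshold (adjusted p = 0.0797 to 0.189), as did the difference from shHP1r to shBcat without either shBcat library (0.079 and 0.0908). Mxd3 was lower with shE2F6 than with shBcat, at 1.16 and 1.37 against 2.73 and 2.71 FPKM (-0.72, adjusted p = 0.0413), but missed the threshold without any 1 of these 4 libraries (0.161 to 0.194) and with the library set term (-0.31, adjusted p = 0.305). Mxd4 was tested only through its shHP1r values, and without either shHP1r library it was not tested. It was higher with shHP1r than with shBcat and shE2F6 (1.47 and 1.28, limma adjusted p = 0.0126 and 0.0253). Those calls were lost without either shBcat library (0.0868 and 0.0923) and without either shE2F6 library (0.112 and 0.123). The members called were 2 of 7 in each of the 3 comparisons, beside 15.2% of all genes for shE2F6 against shBcat, 9.31% for shHP1r against shBcat and 15.5% for shHP1r against shE2F6. Myc, Mycl, Mnt and Mxi1 passed in none of them as fitted here, but each was called under some alternative. With the library set term Myc was higher with shHP1r than with shBcat and shE2F6 (0.83 and 1.51, adjusted p = 0.0206 and 0.0123), and Mycl was higher with shHP1r and with shE2F6 than with shBcat (0.40 and 0.67, adjusted p = 0.00975 and 0.00841). In a fit of only the compared groups Mnt and Mxi1 were lower with shE2F6 than with shBcat (-0.29 and -0.43, adjusted p = 0.0193 and 0.00595). Without shHP1r replicate 2 Mxi1 was lower with shHP1r than with shBcat (-0.89, adjusted p = 0.0142).

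In QKO cells no member passed the test for shBcat, with 2.15% of all genes called. At an unadjusted p under 0.05 the limma count was 3 of 7. No share of all genes was computed at that threshold, so this count cannot be called high or low. Myc stood at 5.67, 10.16 and 5.00 TPM with shGFP and 3.44, 3.36 and 2.83 TPM with shBcat (log2 difference -0.86, SE 0.23, limma adjusted p = 0.0704). Mxd4 stood at 7.98, 8.19 and 6.43 TPM against 5.44, 5.37 and 5.55 TPM (-0.40, SE 0.10, adjusted p = 0.0641). The groups did not overlap for either gene, and both passed without shGFP replicate 3 (Myc -1.04, adjusted p = 0.0490, and Mxd4 -0.49, adjusted p = 0.0346). Mycn stood at 34.36, 33.61 and 36.45 TPM with shGFP and 35.14, 39.22 and 39.96 TPM with shBcat. These overlapped, and the 95% interval of the log2 difference was -0.02 to 0.27 (adjusted p = 0.231). Mycl, at 5.70 to 6.99 against 6.46 to 7.31 TPM, and Mnt, at 17.92 to 19.96 against 17.65 to 19.00 TPM, overlapped as well. The log2 ratio of Mycn + 1 to Myc + 1 was 2.23 ± 0.53 with shGFP and 3.22 ± 0.20 with shBcat (n = 3 each), without overlap (exact two-sided permutation p = 0.1, the smallest that 3 against 3 allow). Fibroblast or feeder markers moved in the same direction as Myc: 4 of 9 fell, the list's median log2 difference was -1.43 against -0.04 over all genes, and their summed level was 1498 to 2170 TPM with shGFP and 1300 to 1354 TPM with shBcat, none being at 0. Summed endoderm markers were also lower, at 16.1 to 23.1 against 30.1 to 51.0 TPM, with none of 5 tested called. Their part in the Myc and Mxd4 values was not tested.

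**Figure D4:**
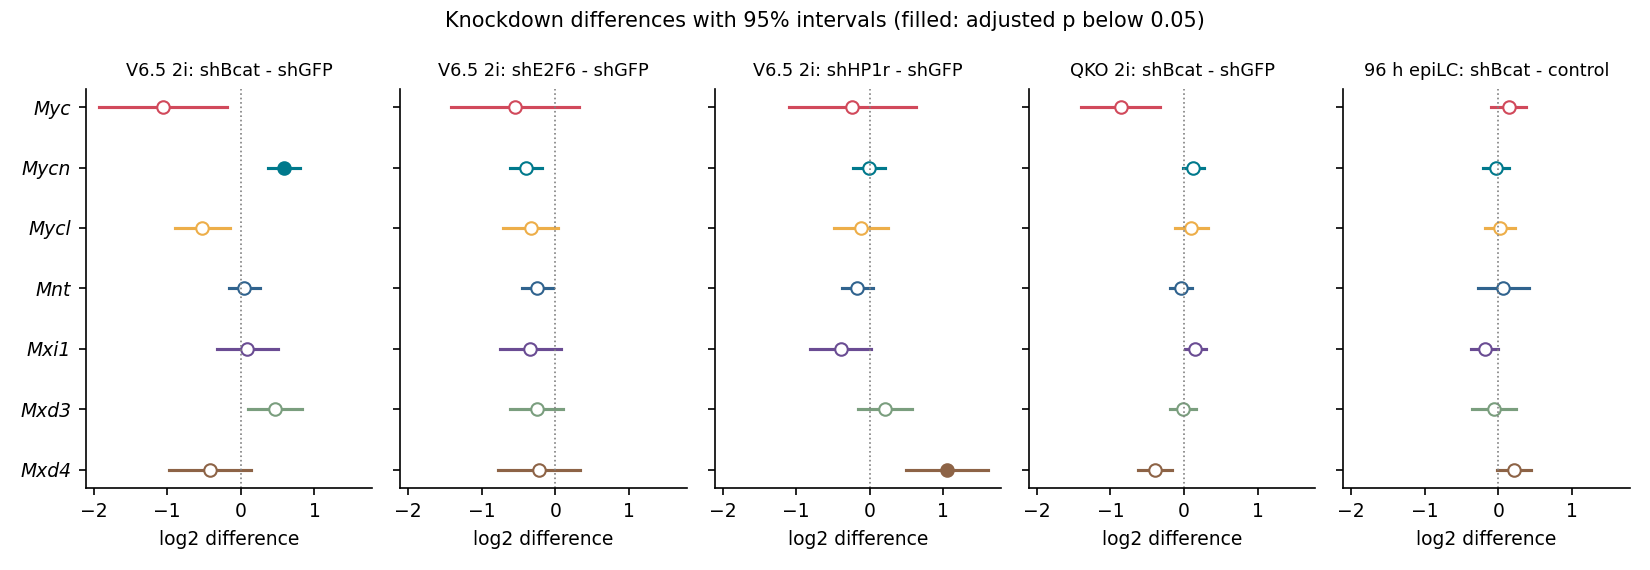
Log2 differences (horizontal axis, log2(value + 1) scale) of the 7 members in each of 5 knockdown comparisons, with 95% intervals from limma and filled points where the adjusted p was below 0.05. The filled points are Mycn with shBcat and Mxd4 with shHP1r in V6.5 cells. Mxd4 met the filter on low values in the V6.5 libraries only through shHP1r, where it was high.

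The other genes of the network were followed through 20 partners of MYC, among them its obligate partner Max, the MAX-binding factor Mga, the chromatin cofactors Trrap, Ruvbl1 and Ruvbl2, and the ubiquitin ligases Fbxw7, Huwe1 and Skp2. At 24 h of control epiLC 9 rose, 6 fell and 5 did not pass, a share close to the 36.2% higher and 39.8% lower among all genes. The smallest p-values among those higher were those of the ATPases Ruvbl1 and Ruvbl2 (0.95 and 0.71) and of Skp2 (0.86), and among those lower of Wdr5, Mga and Mycbp2 (-0.57, -0.58 and -0.50). From 24 h to 48 h 8 rose and 8 fell, beside 45.2% and 28.9% of all genes: Pim1, a kinase that works with MYC, by 2.24, Mycbp2 by 0.89 and Trrap by 0.54, while Ruvbl1, Max and Ruvbl2 changed by -0.52, -0.45 and -0.32 (limma adjusted p at most 7.6e-05 for each of these 6). At 48 h 13 were higher than in 2i and 6 lower, beside 45.1% and 30.8% of all genes. In the shBcat course 1 rose and 4 fell from 24 h to 48 h, where 15.7% and 17.8% of all genes did. Pim1 changed by 0.25, and the 3 with the smallest p among the 4, Usp28, Mlx and Mga, by -0.48, -0.46 and -0.53. From 48 h to 96 h Pim1 and Aurka rose (0.15 and 0.14) and Ruvbl1 fell (-0.18), beside 25.2% and 9.83% of all genes. With shBcat or shE2F6 in V6.5 cells, shBcat in QKO cells and shBcat at 96 h none of the 20 passed, and with shHP1r only Mlxip, a partner of MLX, rose (0.46, limma adjusted p = 0.0078).

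Most MYC target genes rose at 24 h and fell by 48 h in the control course, and 2 of them passed the test among the hairpin comparisons with shGFP in 2i. The list holds 30 genes for nucleolar and ribosome assembly, polyamine and nucleotide synthesis, glycolysis, translation and the cell cycle. At 24 h 27 of 30 rose and 2 fell, with a median log2 change of 0.63 against -0.04 over all genes tested, of which 36.2% were called higher and 39.8% lower. Srm and Odc1, enzymes of polyamine synthesis, rose by 2.24 and 1.74, and Mat2a, which makes S-adenosylmethionine, by 1.24. The 2 that fell were Tfrc (-0.86), the transferrin receptor, and Ldha (-1.26), the lactate dehydrogenase subunit. From 24 h to 48 h 28 of 30 fell and 1 rose, with a median of -0.57 against 0.12 over all genes, of which 28.9% were called lower and 45.2% higher. Srm fell by 1.37, Mat2a by 1.08 and the serine hydroxymethyltransferase Shmt2 by 1.13, and the 1 that rose was the cyclin Ccnd2 (0.89). At 48 h 18 were still higher than in 2i and 6 lower (median 0.18 against 0.11), beside 45.1% and 30.8% of all genes.

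In the shBcat course the targets changed less uniformly from 24 h to 48 h, with 5 higher, 6 lower and a median of -0.01, beside 15.7% and 17.8% of all genes. From 48 h to 96 h 19 of 30 fell and none rose (median -0.21 against 0.09 over all genes, of which 9.83% were called lower and 25.2% higher), led by Nop56, Eif4a1 and Nolc1 (-0.45, -0.30 and -0.39). At 96 h shBcat against control changed Ldha alone (-1.14, limma adjusted p = 1.6e-05). Of the 29 targets tested in V6.5 cells none passed with shBcat or shE2F6, and with shHP1r only the chaperonin Hspd1 fell (-0.36, limma adjusted p = 0.041). Their median log2 differences were -0.05 with shBcat, -0.22 with shE2F6 and -0.23 with shHP1r, against 0.01, -0.20 and 0.04 over all genes. In QKO cells shBcat changed only Ccnd1, cyclin D1, of 30 (-0.34, limma adjusted p = 0.048). Mycn with shBcat in V6.5 cells therefore rose where no target of this list passed the test against shGFP. With shE2F6 4 of the 29 were lower than with shBcat and none higher, beside 15.2% of all genes called. The list's median there was -0.14 against -0.20 over all genes. None passed between shHP1r and shBcat or between shHP1r and shE2F6.

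**Figure D5:**
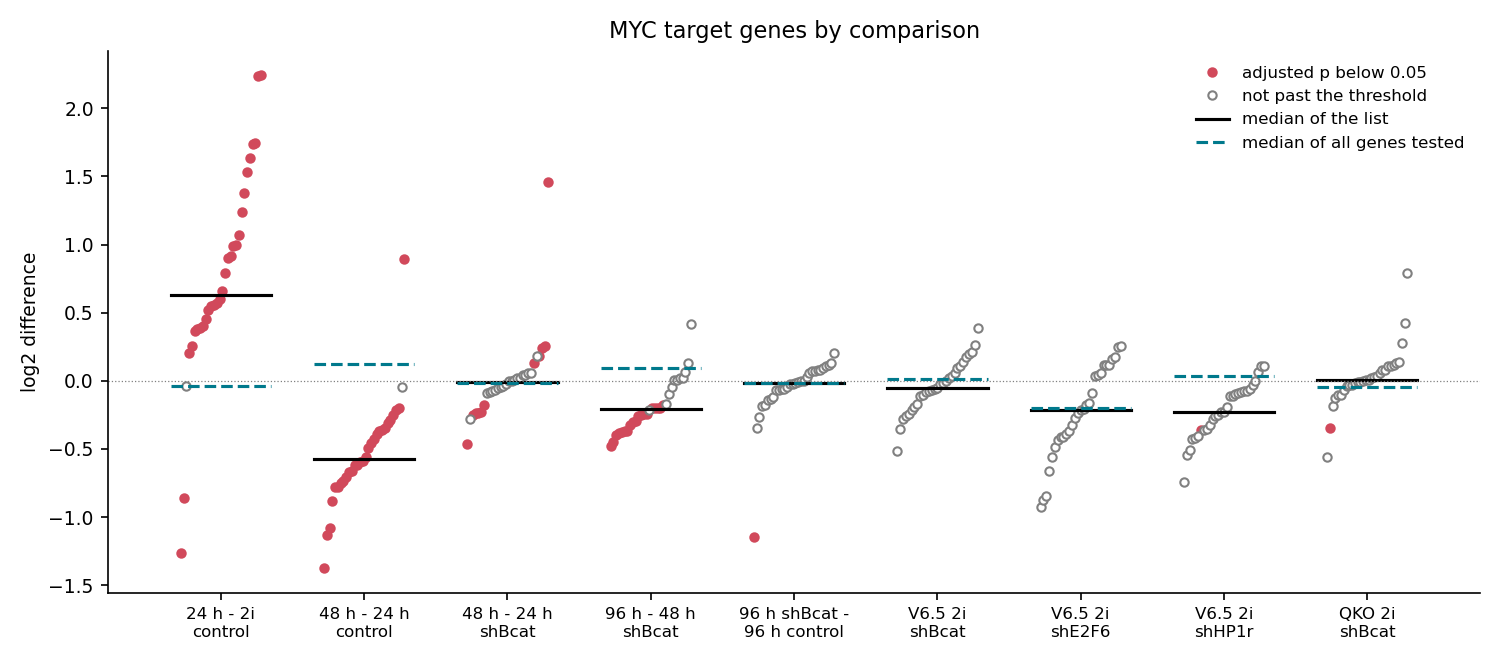
Log2 differences (vertical axis, log2(value + 1) scale) of the MYC target genes in 9 comparisons, with 1 point per gene, red where the adjusted p was below 0.05, a black line at the list's median and a dashed line at the median of all genes tested. Nearly all points lie above 0 at 24 h and below 0 from 24 h to 48 h, and the knockdown comparisons in 2i hold 2 red points in all, Hspd1 and Ccnd1.

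The genes whose pattern lay nearest to each paralog were named by Pearson's r of log2(value + 1), as a description over libraries that share their groups. Over the 12 libraries of the FPKM table, with 5838 genes compared, Myc was closest to Etv1, Gpatch4 and Upk1a (r = 0.96, 0.92 and 0.92), Mycn to Nf2, Ssr2 and Slc20a1 (0.96, 0.96 and 0.95) and Mycl to Elf3, Ier5l and Accsl (0.98, 0.97 and 0.96). Over the 8 libraries of the table with 96 h epiLC, with 4584 genes compared, Mycn was closest to Tex2, Helz and Otx2 (0.99, 0.99 and 0.98), Myc to Slc29a1, Car6 and Atp5g1 (0.99, 0.98 and 0.98) and Mycl to Zfp362, Gas1 and Serpinh1, each at 0.999. Of these 4584 genes, 1815 had r above 0.9 with Mycl, 473 with Myc and 129 with Mycn, against 63, 3 and 19 of 5838 in the FPKM table.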

How the data were processed

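RNA-seq values were used for 32 of the 50 samples, and the 18 chromatin immunoprecipitation samples were not analysed here. The authors deposited FPKM values for the 12 V6.5 hairpin libraries, for which the submitters' processing notes name the build mm10 and the tools TopHat2 2.0.13 and Bowtie2, Cufflinks 2.2.1 and bcl2fastq 2.18. The authors deposited TPM values in the other 3 tables, for which those notes name STAR, RSEM and Bowtie2 with no version. RNA was extracted with TRIzol and treated with DNase, per the labels' protocols. The FPKM table held 1 further column of per-sample values, which was not used. TPM keeps no depth, and FPKM without gene lengths gave none, so depth is unknown and no interval rests on it. Abundant transcripts lower all other values of a library in both units, so scaling was varied.

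A gene was tested when 2 or more libraries of its table reached a value of 1. Each table had its own limma 3.58.1 fit of log2(value + 1) with group terms, run in R 4.3.3 with trended, robust variances (statmod 1.5.0). Tests were two-sided, with Benjamini-Hochberg adjustment over all genes tested in each of 13 comparisons and a threshold of 0.05. The script was tested on simulated data. The log2 ratio of Mycn to Myc was compared by exact permutation over libraries (scipy 1.17.1 in Python 3.11.15). The genes named are the 7 members, the targeted genes, from each list at most 3 called genes per direction, by smallest p, and the 3 genes nearest to each paralog among those with an SD of at least 0.25, leaving out predicted, ribosomal protein and small RNA genes. The members, lists and comparisons were chosen with earlier results of these data known. Alternatives were leaving out the filter or raising it to 5, a pseudocount of 0.1, plain variances, only the compared groups, median-of-ratios scaling, a replicate block, each library left out, libraries averaged in pairs, a term for the library set that shE2F6 forms with shGFP replicates 3 and 4, those 2 controls alone, and, chosen after seeing the data, those 2 controls left out.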

Additional observations from a re-analysis of the deposited data

Results flagged for a closer look

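In 4 places every library of one comparison moved one way and every library of another comparison moved the other way. How many of all genes show such a pattern was not counted, so the 4 places are listed only and not read as particular to these genes. None of the single differences passed its own test, and because the paired comparisons stand in separately normalized tables, the difference between them was not tested. Mxd4 was lower with shBcat in V6.5 cells in 2i (log2 difference -0.41) and higher with shBcat in 96 h epiLC (0.21), a gap of -0.63. Its V6.5 values were low, at 0.242 to 0.263 FPKM with shBcat and 0.38 to 0.985 FPKM with shGFP. The gene was tested there only through the shHP1r libraries. In QKO cells Mxd4 was also lower with shBcat (-0.40), which gave a gap of -0.61 to 96 h epiLC. Mxi1 was higher with shBcat in QKO cells (0.16) and lower in 96 h epiLC (-0.18), a gap of 0.34. Mnt was higher at 48 h than at 24 h in control epiLC (0.06) and lower in epiLC with shBcat (-0.17), a gap of 0.23, and the control value turned to -0.10 with median-of-ratios scaling.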

How the results depend on the processing

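The count of members called in V6.5 cells moved most with the choice of controls and settings. For shBcat it was 1 as reported, 2 with a pseudocount of 0.1, with median-of-ratios scaling and with the replicate block, 3 with the library set term or with shGFP replicates 3 and 4 left out, 0 with libraries averaged in pairs, and 0 to 2 with each library left out. For shE2F6 it was 0, then 3 with the replicate block, 1 with the set term, 4 with those 2 controls left out and 0 to 1 with each library left out. For shHP1r it was 1, then 2 with the set term, 0 with a minimum of 5 (which drops Mxd4), the replicate block, averaged pairs or only the compared groups, and 0 to 1 with each library left out. Between shE2F6 and shBcat it went from 2 to 1 with the minimum of 5, 0 with averaged pairs, 3 with the block, 4 with only the compared groups and 1 with each library left out. Between shHP1r and shBcat it went from 2 to 1 with the minimum of 5 or only the compared groups, 4 with the block or the set term, 0 with averaged pairs and 0 to 2 with each library left out. Between shHP1r and shE2F6 it went from 2 to 0 with the minimum of 5, averaged pairs or any library left out, to 1 with no variance trend, median-of-ratios scaling, the set term or only the compared groups, and to 3 with the block. In QKO cells it was 0, and 0 to 2 with each library left out. From 24 h to 48 h with shBcat it was 2, and 3 with the block, with median-of-ratios scaling or with only the compared groups. From 48 h to 96 h with shBcat it was 1, and 3 with median-of-ratios scaling (Myc -0.30, Mxi1 -0.29 and Mycl 0.90). The cause of these changes was not tested, apart from fewer libraries or genes where a setting has them. Calls over all genes are given next only as a range per comparison, not for each setting. The counts of members are therefore not read as particular to them. Over all genes the calls ranged from 0 to 3473 for shBcat (1255 as reported), 0 to 8495 for shE2F6 (153), 0 to 3296 for shHP1r (1093), 0 to 8982 for shE2F6 against shBcat (2196), 117 to 3817 for shHP1r against shBcat (1341), 0 to 8039 for shHP1r against shE2F6 (2230), 8 to 964 for QKO (334), 268 to 771 at 96 h (738), 2870 to 6279 from 24 h to 48 h with shBcat (5115) and 2611 to 5503 from 48 h to 96 h (5360). No called value turned its direction, and 54 changes of sign lay between values that missed the threshold in both settings. Without shGFP replicates 3 and 4 the Mycn to Myc difference for shBcat was 1.22 in place of 1.65. By number, libraries were not treated as paired: in QKO cells the deviations of same-numbered libraries correlated at -0.01, -0.04 and 0.13, and the other comparisons share only 2 numbers. At 96 h same-numbered libraries correlated at 0.28, too few to decide, and the block called 0 members there as well. With 2 libraries in most groups only differences well above the spread can pass.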
